A study of Sus scrofa with 22 samples.

Results

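Described here are 10 genes of the ATF4 and unfolded protein response pathways in cells and tissue of the pig tongue, chosen by name from 27376 genes in 16 of the libraries and 29850 genes in the other 6, of which 26838 are in both. ATF4, ATF3, DDIT3, TRIB3, CHAC1, ASNS and SESN2 stand for the ATF4 and amino acid branch, and XBP1, HSPA5 and DNAJB9 for the chaperone branch of the endoplasmic reticulum (ER). All 10 had counts in each of the 22 RNA sequencing libraries, with 66 to 16579 counts per gene and library, and all 10 passed the filter on low counts in each comparison.

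ER stress, amino acid shortage, haem deficiency and double-stranded RNA each activate a kinase that phosphorylates the translation factor eIF2α, which slows protein synthesis in general and raises translation of ATF4 mRNA. ATF4 protein then turns on genes for amino acid supply and tRNA charging and, under strong stress, the ATF3, CHOP and TRIB3 genes. Separately, the ER sensor IRE1 splices XBP1 mRNA and the sensor ATF6 is cut to an active factor, and together they raise ER chaperones and the machinery of secretion and degradation. Secretory cells such as those of salivary glands carry high levels of this second arm. Because ATF4 and XBP1 are set largely by translation and splicing, counts per gene show the amount of their mRNA and not the activity of their proteins.

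Passage 1 organoids, 5 libraries grown from foliate papilla cells of pigs 1 to 5, stood against 5 libraries of foliate papillae, the taste bud-bearing folds at the side of the tongue, from those pigs. Organoids in LPM without FGF10 (3 libraries) stood against 3 in complete LPM, and organoids finished in CQ (3 libraries) stood against 3 kept in LPM. The abbreviations are not spelled out in the labels. LPM, by the protocol given with 16 libraries, was changed every 48 hours and held EGF at 50, FGF10 at 100 and FGF2 at 10 ng/ml, insulin at 10 nM, forskolin at 1 µM, N-acetyl cysteine, an antioxidant, at 1.25 µM and nicotinamide at 10 mM, together with R-spondin 2, noggin, SHH, Wnt3a, prostaglandin E2, Y-27632, A-83-01, CHIR99021 and SB202190, an inhibitor of p38 kinase. Passage 1 organoids have the same concentrations and feeding interval in the labels as organoids in complete LPM of the FGF10 experiment. Medium without FGF10 kept the other agents, as far as the labels say. The CQ cultures had LPM from day 0 and CQ from day 10 to day 16 or 17. The composition of CQ and the day on which its LPM controls were taken are not given in the sources used here, so medium and culture age cannot be told apart. For the FGF10 and CQ experiments the labels name a foliate cell line and no number of pigs. Titles in the FGF10 experiment call its libraries biological replicates, without saying of what, and those in the CQ experiment only number samples. The p-values of both experiments thus measure only the spread between these libraries, which may not be between animals and may be technical. Papillae were extracted with another kit than organoids and without DNase, and kit and tissue cannot be told apart.

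Library totals ran from 14.67 to 27.77 M counts, lowest in CQ at 14.67 to 16.0 M. CQ libraries also showed fewer genes, 14014 to 16005 with at least 1 count, against 17489 to 17920 in their LPM controls. Levels are CPM, the gene's counts scaled to a common library total, after TMM scaling, which sets the bulk of genes equal within a comparison, and each experiment was scaled on its own. A gene is said to have risen or fallen where edgeR's quasi-likelihood test gave a Benjamini-Hochberg adjusted p under 0.05 over all genes tested. Skeletal muscle markers summed to 1.36 to 6.38 CPM in passage 1 organoids and 288 to 8560 CPM in papillae, and fibroblast markers to 5.49 to 11.9 CPM in organoids and 1970 to 7350 CPM in papillae. Endothelial markers summed to 12.2 to 19.7 CPM in organoids and 422 to 627 CPM in papillae, and immune cell markers to 26.8 to 55.7 CPM in organoids and 414 to 572 CPM in papillae. Taste epithelium markers such as KRT8 summed to 3850 to 8140 CPM in organoids and 763 to 1400 CPM in papillae, but TRPM5 and PLCB2, of taste receptor cells, fell in organoids. The papilla samples hold several tissues, and in such bulk samples fewer cells of a type and less RNA per cell cannot be told apart.

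Corrected for exon length, ATF4, XBP1 and HSPA5 were the most abundant of the 10 in both groups of the first experiment. In passage 1 organoids ATF4 averaged 231 CPM per kilobase of exon, XBP1 208 and HSPA5 200, against 161, 155 and 139 in papillae. Lowest in organoids were SESN2 at 7.72, DNAJB9 at 8.5 and TRIB3 at 8.66 CPM per kilobase, against 3.87, 19.1 and 1.93 in papillae. Positions below are Sscrofa11.1 coordinates of whole genes from the deposited files.

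Passage 1 organoids against papillae asked how cultured taste organoids differ from their source tissue. Of the 10 genes 4 rose in organoids (ASNS, TRIB3, ATF3 and SESN2), 1 fell (DNAJB9) and 5 did not pass the test. This test did not pair samples by pig, and with pig as a block ATF3 lost its call and CHAC1 gained one. The unpaired test called 67.5% of all 16311 genes, with 32.4% up and 35.1% down in organoids. The share of the 10 that passed was thus not above the background. The ATF4 branch had a median log2 fold change of 1.24 and the chaperone branch 0.42, beside -0.01 for all genes tested. With library size as the only scaling, that median was 0.28, the genes that rose made up 59.6% of all calls in place of 48.0%, and 7 of the 10 genes rose.

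ASNS (chr9:77318341-77336290, minus strand) encodes asparagine synthetase, a classical ATF4 target. It had 153.0, 113.9, 133.6, 110.5 and 62.2 CPM in organoids of pigs 1 to 5, against 37.7, 26.5, 25.3, 30.0 and 36.9 CPM in papillae of the same pigs. Every organoid library lay above every papilla library. Its fold change was 3.67 (log2 1.87, SE 0.23, adjusted p = 2.36e-05), and within pigs organoid exceeded papilla in 5 of 5, by ratios of 1.69 to 5.28.

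TRIB3 (chr17:34808273-34819592, minus strand) encodes a pseudokinase induced by ATF4 and CHOP that inhibits AKT. Organoids had 32.5, 30.1, 59.2, 8.04 and 7.59 CPM for pigs 1 to 5, against 4.08, 4.86, 6.7, 9.73 and 5.23 CPM in papillae. Organoids of pigs 1, 2 and 3 exceeded all papillae, while those of pigs 4 and 5 lay among them. The gene rose 4.49-fold (log2 2.17, SE 0.54, adjusted p = 0.00413), although limma-voom did not call it (adjusted p = 0.0532).

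ATF3 (chr9:130772259-130829678, minus strand), a stress-induced transcription factor, showed 79.3, 42.0, 76.3, 11.5 and 30.7 CPM in organoids and 21.8, 18.9, 15.7, 20.5 and 24.9 CPM in papillae. Organoids of pig 4 were below every papilla and the other 4 above. The 2.36-fold rise (log2 1.24, SE 0.42, adjusted p = 0.0211) did not pass once pigs were paired as a block (log2 0.98, adjusted p = 0.0866), nor without organoids of pig 1 or pig 3 (adjusted p = 0.0515 and 0.0517), nor with limma-voom (adjusted p = 0.108).

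SESN2 (chr6:85321982-85348044, plus strand) encodes sestrin 2, a leucine-binding inhibitor of mTORC1. It had 77.3, 51.9, 82.2, 21.8 and 25.6 CPM in organoids, against 37.8, 27.2, 25.4, 19 and 20.2 CPM in papillae. Pigs 1, 2 and 3 again gave organoid values above every papilla, and pigs 4 and 5 values within the papilla range. It rose 2.00-fold (log2 1.00, SE 0.37, adjusted p = 0.0318), but the call was lost without papilla 3, 4 or 5 or organoids of pig 1 or 3, with adjusted p = 0.058 to 0.0789, and with limma-voom (adjusted p = 0.084).

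CHAC1 (chr1:130360510-130363332, minus strand) encodes an enzyme that degrades glutathione. Organoids had 97.9, 48.1, 85.6, 11.4 and 6.01 CPM, against 51.6, 20.1, 16.4, 7.0 and 7.51 CPM in papillae. It varied more within these groups than any other of the 10, with a coefficient of variation of 84.0% over organoids and 89.0% over papillae, and the groups overlapped. Its log2 fold change of 1.28 (95% interval -0.40 to 2.96) missed the threshold at adjusted p = 0.159. Paired by pig in a block it passed, at log2 1.01 and adjusted p = 0.0339, as it did without the papilla of pig 1 (log2 1.96, adjusted p = 0.0444), and organoids exceeded papilla in 4 of 5 pigs.

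ATF4 itself (chr5:8742964-8745752, minus strand), the master regulator of the branch, had 659.5, 547.8, 642.1, 353.7 and 250.1 CPM in organoids and 340.4, 282.1, 323.5, 350.9 and 410.5 CPM in papillae. Pigs 1, 2 and 3 had organoids above every papilla and pig 5 organoids below every papilla. The log2 fold change of 0.52 (95% interval -0.03 to 1.08) did not pass the test (adjusted p = 0.0864), but did without organoids of pig 4 or pig 5 (adjusted p = 0.0447 and 0.00944). DDIT3 (chr5:22785441-22789867, minus strand) encodes the pro-apoptotic factor CHOP. It had 21, 17.8, 23.4, 7.64 and 9.89 CPM in organoids, against 17.0, 18.4, 16.9, 22.2 and 23.5 CPM in papillae, and the groups overlapped (log2 -0.30, 95% interval -0.93 to 0.34, adjusted p = 0.38). It shares 69 bases with MARS on the opposite strand, and counting without strand cannot tell the reads there apart.

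The organoid libraries themselves thus differed across the branch. With 1 organoid library per pig, animal, culture and library cannot be told apart. Of its 7 genes, organoids of pig 1 had 6 above every papilla, pig 2 had 5, pig 3 had 6, pig 4 had 1 and pig 5 had 2. Highest over lowest organoid library came to 16.3 for CHAC1, 7.8 for TRIB3 and 2.46 for ASNS. Immediate early genes, a list of 12 genes in the files such as EGR1 and JUNB, summed to 1770, 1660, 1700, 695 and 972 CPM in organoids of pigs 1 to 5, against 1080 to 1570 CPM in papillae. Of 5 basal epithelium markers, ITGA6, ITGB4 and COL17A1 rose in organoids and KRT5 and TP63 fell (median log2 1.34). Their sum was 7260, 5550, 6720, 3250 and 6310 CPM in organoids of pigs 1 to 5, against 8090 to 11200 CPM in papillae, of which KRT5 alone averaged 1690 ± 403 CPM in organoids and 8180 ± 1280 CPM in papillae. Genes with at least 1 count numbered 17907, 17975, 18254, 18433 and 19049 in these organoids. The part of these in the difference between organoid libraries was not tested.

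**Figure D1:**
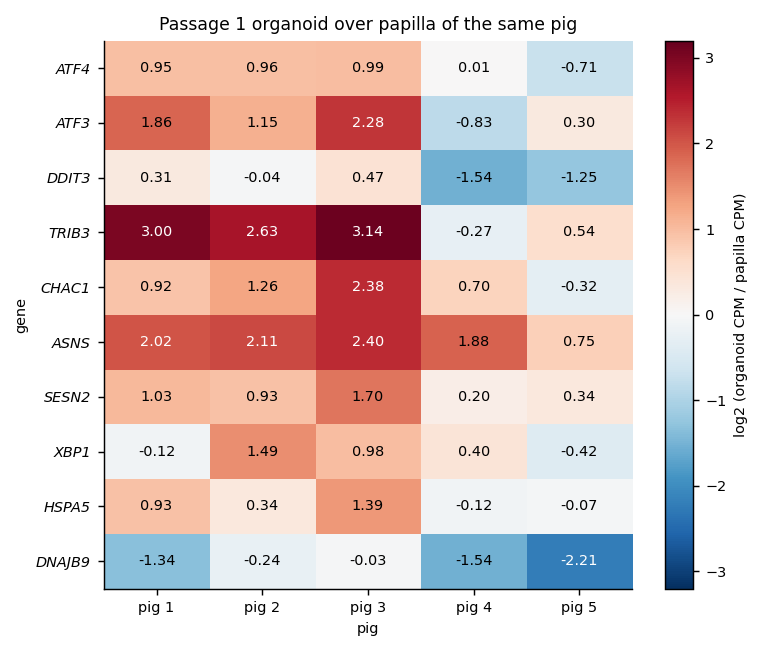
Each cell gives the log2 ratio of CPM in passage 1 organoids over papilla of the same pig, with genes in rows and pigs in columns. Organoids of pigs 1, 2 and 3 show ratios above 0 for every ATF4-branch gene except DDIT3 in pig 2, and DNAJB9 is below 0 in all 5 pigs.

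Of the chaperone branch, XBP1 (chr14:46011239-46016526, minus strand), the transcription factor downstream of IRE1, had 321.2, 564.6, 328.3, 297.4 and 312.7 CPM in organoids, against 349.6, 200.6, 166.9, 225.6 and 419.0 CPM in papillae. All organoids but those of pig 2 lay within the papilla range (log2 0.42, 95% interval -0.19 to 1.03, adjusted p = 0.196). HSPA5 (chr1:265930044-265934959, minus strand) encodes BiP, the main ER chaperone of the HSP70 family. It had 674.6, 553.6, 653.7, 322.3 and 399.2 CPM in organoids, against 352.9, 437.4, 249.9, 349.4 and 420.4 CPM in papillae. As for ATF4, TRIB3 and SESN2, organoids of pigs 1, 2 and 3 were above every papilla and those of pigs 4 and 5 were not. HSPA5 missed the test (log2 0.52, 95% interval 0.02 to 1.03, adjusted p = 0.0625). Without organoids of pig 4 or pig 5 it was passed, with adjusted p = 0.0129 and 0.0411.

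DNAJB9 (chr18:36578928-36584211, minus strand) encodes ERdj4, an ER co-chaperone of BiP induced by XBP1. It had 21.6, 31.1, 26.7, 16.3 and 20.9 CPM in organoids, against 54.8, 36.8, 27.3, 47.3 and 96.2 CPM in papillae. Organoids of pig 2 alone reached into the papilla range. Expression fell 2.25-fold (log2 -1.17, SE 0.31, adjusted p = 0.00574), and organoid was below papilla in 5 of 5 pigs, although in pig 3 the ratio was 0.98. The call held in each alternative tried.

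Glands and plasma cells, both rich in ER, were part of the papilla samples. All 9 gland markers in the files fell in organoids, summing to 35.2 to 300 CPM, against 51800 to 252000 CPM in papillae, and PIP was at 0 in all organoids. Over papillae of pigs 1 to 5 the gland sum was 135000, 51800, 74100, 138000 and 252000 CPM. The papilla of pig 5 was highest, and those of pigs 2 and 3 lowest, for the gland sum, XBP1 and DNAJB9 alike. HSPA5 did not share this order, being highest in the papilla of pig 2 at 437.4 CPM, against 420.4 CPM in pig 5. Of 8 plasma cell markers 6 fell, with sums of 14.8 to 68.2 CPM in organoids and 100 to 197 CPM in papillae, and FCRL5 was at 0 in organoids. What share of XBP1 and DNAJB9 reads in papillae came from these cells was not tested.

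Other genes of both pathways were counted from lists, beside 32.4% of all genes tested called up and 35.1% called down in organoids. Of 12 tRNA synthetase genes that ATF4 targets, which load amino acids onto tRNA, 9 rose in organoids and none fell (median log2 0.72). IARS averaged 173 ± 30.7 CPM in organoids and 63.8 ± 9.35 CPM in papillae (SD, n = 5 each), and TARS 86.3 ± 22.3 CPM in organoids and 42.2 ± 5.36 CPM in papillae. Of the 8 other synthetases, 4 rose and none fell (median 0.39), among them KARS at 559 ± 149 CPM in organoids and 204 ± 11 CPM in papillae. Of 9 amino acid transporters tested, 4 rose and none fell (median 0.44), led by the glutamine carrier SLC38A1 with 48.6 ± 10.5 CPM in organoids, against 3.66 ± 0.417 CPM in papillae.

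Amino acid synthesis genes were divided, with 3 of 12 higher and 4 lower (median -0.16, or 0.17 when scaled by library size alone). PSPH, the last enzyme of serine synthesis, rose to 30.6 ± 13.3 CPM in organoids, against 8.58 ± 1.49 CPM in papillae. GPT2, a mitochondrial alanine transaminase, fell to 49.2 ± 10.1 CPM in organoids, against 220 ± 53.3 CPM in papillae. Of 18 other ATF4 and CHOP targets, 9 rose and 3 fell (median 0.73). DDIT4, an inhibitor of mTORC1, had 865 ± 356 CPM in organoids and 63.7 ± 14.1 CPM in papillae, and the stress cytokine gene GDF15 had 20.2 ± 9.53 CPM in organoids and 0.132 ± 0.0776 CPM in papillae. GDF15, SESN2 and ATF3 are also known p53 targets, and of 10 p53 targets 8 rose in organoids and 1 fell, with sums of 1120 to 1930 CPM in organoids and 517 to 600 CPM in papillae. The part of p53 in the rise of SESN2 and ATF3 was not tested.

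ATF6 and XBP1 targets also moved both ways, with shares that rose near the 32.4% of all genes tested. The shares that fell were under the 35.1% of all genes. Of 17 ATF6 chaperone targets, a list that holds XBP1 and HSPA5, 6 rose and 3 fell (median log2 0.32, or 0.21 without those 2 genes). DNAJB11 and DNAJC3 are on this list and on that of XBP1 targets, so the counts of these lists are not independent. The lectin chaperone CANX averaged 387 ± 21.8 CPM in organoids and 188 ± 27.5 CPM in papillae. CRELD2 and SDF2L1, ER proteins induced by stress, fell to 35.8 ± 5.58 and 6.46 ± 2.15 CPM in organoids, against 150 ± 52.4 and 34.9 ± 13.6 CPM in papillae. Of 23 XBP1 targets, 8 rose and 3 fell (median 0.18), with EDEM1, a lectin of ER-associated degradation, at 335 ± 52.2 CPM in organoids and 125 ± 17.3 CPM in papillae.

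Among the 12 genes of the sensors and their activation, 5 rose and 4 fell (median 0.14). ATF6 averaged 166 ± 19.6 CPM in organoids and 43.3 ± 6.1 CPM in papillae. ERN2, the IRE1 form of mucosal secretory cells, averaged 7.06 ± 4.43 CPM in organoids and 54.6 ± 18.8 CPM in papillae. Of 8 genes for eIF2α, its kinases and phosphatase subunits, 4 rose and none fell (median 0.41), including EIF2S1, which encodes eIF2α, at 70.6 ± 3.51 CPM in organoids and 41.4 ± 2.35 CPM in papillae.

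**Figure D2:**
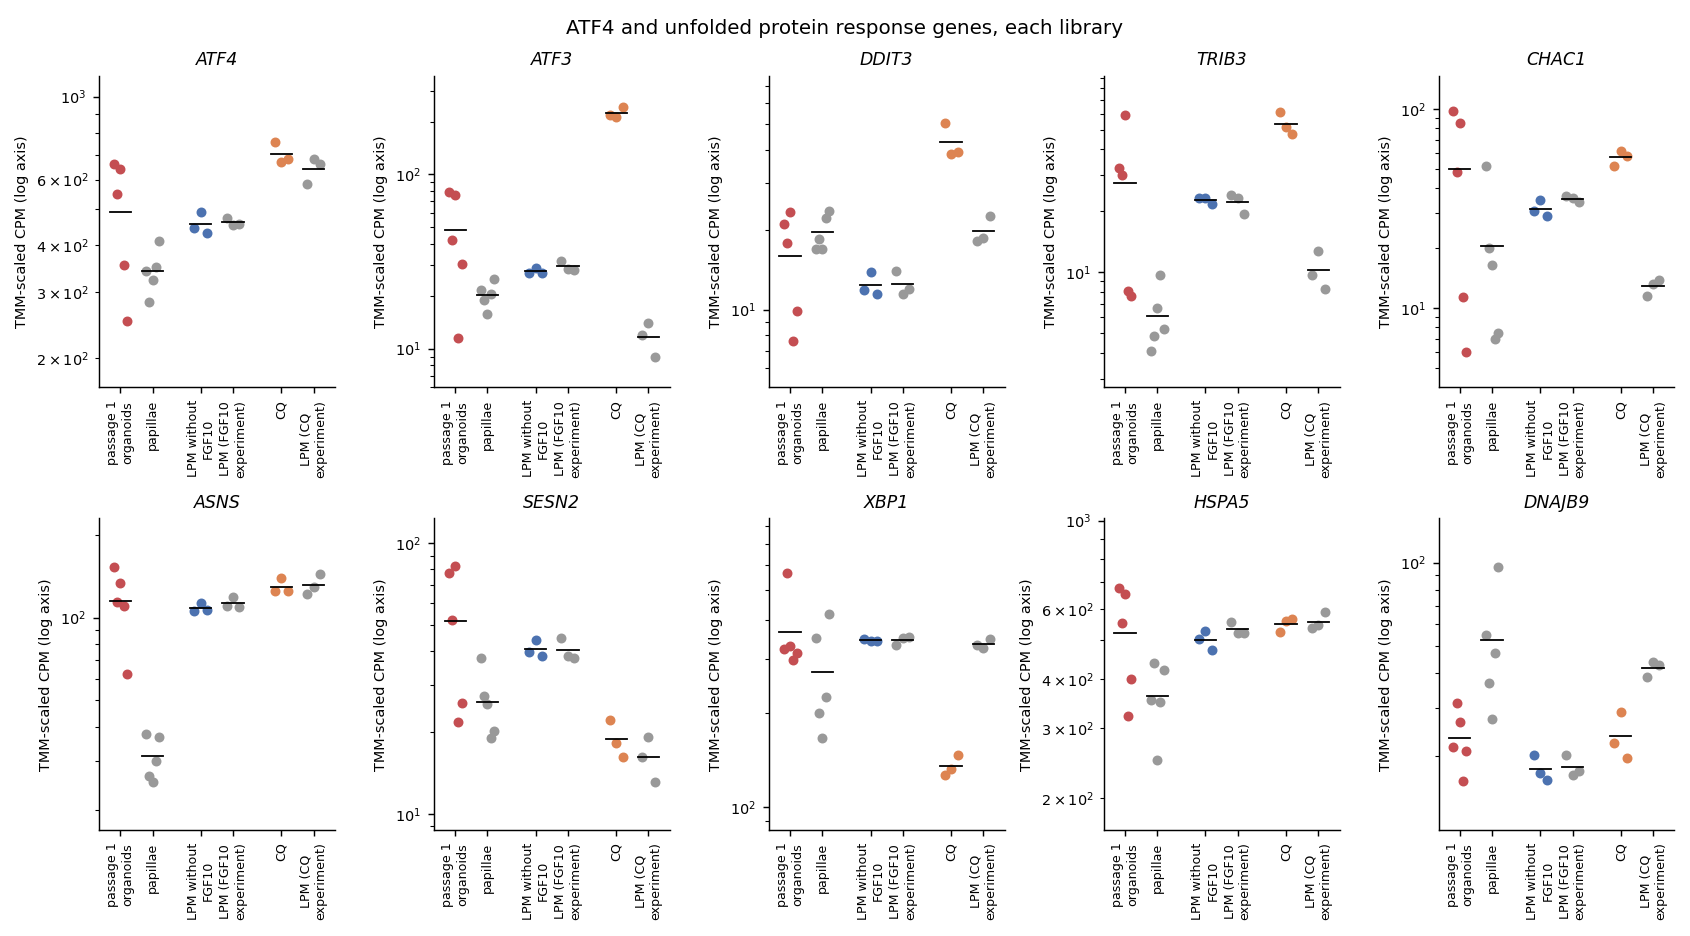
Points are TMM-scaled CPM of single libraries on a log axis, and bars are group means, for the 10 genes in 6 groups of 5 or 3 libraries, with each experiment scaled on its own. In CQ, ATF3 lies at 214.1 to 244.3 CPM, above its LPM controls at 9.0 to 14.1 CPM, and XBP1 lies at 126.6 to 146.5 CPM, below its controls at 324.6 to 346.5 CPM.

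LPM without FGF10 against LPM asked what the growth factor FGF10 contributes. None of the 10 genes rose or fell by edgeR, and 2 of 10 had an unadjusted p under 0.05 (CHAC1 and HSPA5). DESeq2 and limma-voom called none either, with 1 and 2 at an unadjusted p under 0.05. Across the 14262 genes that were fitted the test called 1.78%, or 0.582% up and 1.2% down without FGF10, and 0 of 10 is close to that share.

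CHAC1 came closest, at 30.9, 34.9 and 29.1 CPM without FGF10, against 36.5, 35.8 and 34.2 CPM in LPM. The groups overlapped in 1 library, and the log2 fold change was -0.16 (95% interval -0.30 to -0.03, adjusted p = 0.271). Without the second FGF10-free library it passed (log2 -0.25, adjusted p = 0.048). HSPA5 had 503.4, 527.0 and 473.5 CPM without FGF10, against 554.6, 520.7 and 521.0 CPM in LPM (log2 -0.09, adjusted p = 0.418).

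ATF4 had 444.4, 490.0 and 432.8 CPM without FGF10, against 474.0, 452.5 and 456.4 CPM in LPM, on both sides of the LPM range. Its log2 fold change was -0.02, with a 95% interval of -0.10 to 0.07. The interval was wider for DDIT3 (-0.21 to 0.20), DNAJB9 (-0.21 to 0.15) and ATF3 (-0.22 to 0.04). XBP1 was the tightest, at 347.1, 341.0 and 341.5 CPM without FGF10, against 331.5, 350.1 and 352.7 CPM in LPM (log2 -0.01, 95% interval -0.08 to 0.07). Adjusted p was at least 0.271 for all 10 genes.

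The pathway lists were as quiet. None of the 12 amino acid synthesis, 9 transporter, 12 ATF4-targeted synthetase, 8 other synthetase, 18 other ATF4 and CHOP, 23 XBP1, 17 ATF6 chaperone and 8 eIF2α genes tested was called, with medians from -0.04 to 0.02 on the log2 scale. SLC38A2, the most abundant transporter, averaged 663 ± 44.8 CPM without FGF10 and 652 ± 9.43 CPM in LPM (SD, n = 3 each). Of the 12 sensor genes 1 fell, the membrane-bound factor CREB3L1, at 38.3 ± 3.64 CPM without FGF10 and 46.0 ± 4.05 CPM in LPM (log2 -0.26, adjusted p = 0.0398).

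CQ against LPM asked what finishing the cultures in the second medium changed. Here the genes moved apart: ATF3, TRIB3, CHAC1 and DDIT3 rose, XBP1 and DNAJB9 fell, and ATF4, ASNS, SESN2 and HSPA5 did not pass the test. The background was 47.9% of 13827 genes called, 23.1% up and 24.8% down in CQ, beside 4 up and 2 down of the 10. Medians were 1.12 for the ATF4 branch and -0.82 for the chaperone branch, beside -0.07 for all genes tested. These 6 calls held in each alternative tried, including leaving out each library in turn.

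ATF3 had 217.3, 214.1 and 244.3 CPM in CQ, against 12.0, 14.1 and 9.0 CPM in LPM. No library of one medium came near the other. It rose 19.3-fold (log2 4.27, SE 0.18, adjusted p = 4.84e-07), the largest change of the 10.

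TRIB3 had 61.3, 51.8 and 47.5 CPM in CQ, against 9.7, 12.7 and 8.23 CPM in LPM, a 5.25-fold rise (log2 2.39, SE 0.20, adjusted p = 1.96e-05). CHAC1 had 51.7, 61.5 and 58.3 CPM in CQ, against 11.5, 13.3 and 13.9 CPM in LPM, and rose 4.42-fold (log2 2.14, SE 0.15, adjusted p = 6.47e-06). DDIT3 had 50.8, 38.6 and 39.3 CPM in CQ, against 18.2, 18.7 and 22.5 CPM in LPM, with a 2.17-fold rise (log2 1.12, SE 0.17, adjusted p = 0.000624). For these 3 genes, as for ATF3, all CQ libraries lay above all LPM libraries.

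The rest of the ATF4 branch did not move with them. ASNS had 124.7, 138.8 and 124.7 CPM in CQ, against 122.3, 128.9 and 144.6 CPM in LPM, and its interval on the log2 scale was -0.28 to 0.22 (log2 -0.03, adjusted p = 0.856). ATF4 had 758.1, 668.4 and 680.5 CPM in CQ, against 585.2, 680.7 and 658.7 CPM in LPM, overlapping (log2 0.13, 95% interval -0.09 to 0.35, adjusted p = 0.305). SESN2 had 22.3, 18.3 and 16.3 CPM in CQ and 16.2, 19.2 and 13.1 CPM in LPM (log2 0.23, 95% interval -0.25 to 0.70, adjusted p = 0.401). These intervals leave out a 2-fold change for all 3 genes.

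In the chaperone branch XBP1 had 126.6, 132.3 and 146.5 CPM in CQ, against 331.2, 324.6 and 346.5 CPM in LPM. It fell 2.47-fold (log2 -1.31, SE 0.10, adjusted p = 1.15e-05), with every CQ library below every LPM library. DNAJB9 had 22.3, 28.9 and 19.8 CPM in CQ, against 38.8, 43.7 and 42.9 CPM in LPM, and fell 1.77-fold (log2 -0.82, SE 0.17, adjusted p = 0.00346), again with no overlap. HSPA5 had 522.8, 559.2 and 566.7 CPM in CQ, against 538.0, 545.1 and 587.6 CPM in LPM, and any difference was small (log2 -0.02, 95% interval -0.22 to 0.18, adjusted p = 0.876). Gland markers, abundant in papillae, summed to at most 3.54 CPM in CQ and 8.6 to 10.8 CPM in LPM over the 9 genes in the files, with BPIFA2, OBP2B, BPIFB1, PIGR and ZG16B at 0 in CQ and LPO and PIP at 0 in LPM.

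**Figure D3:**
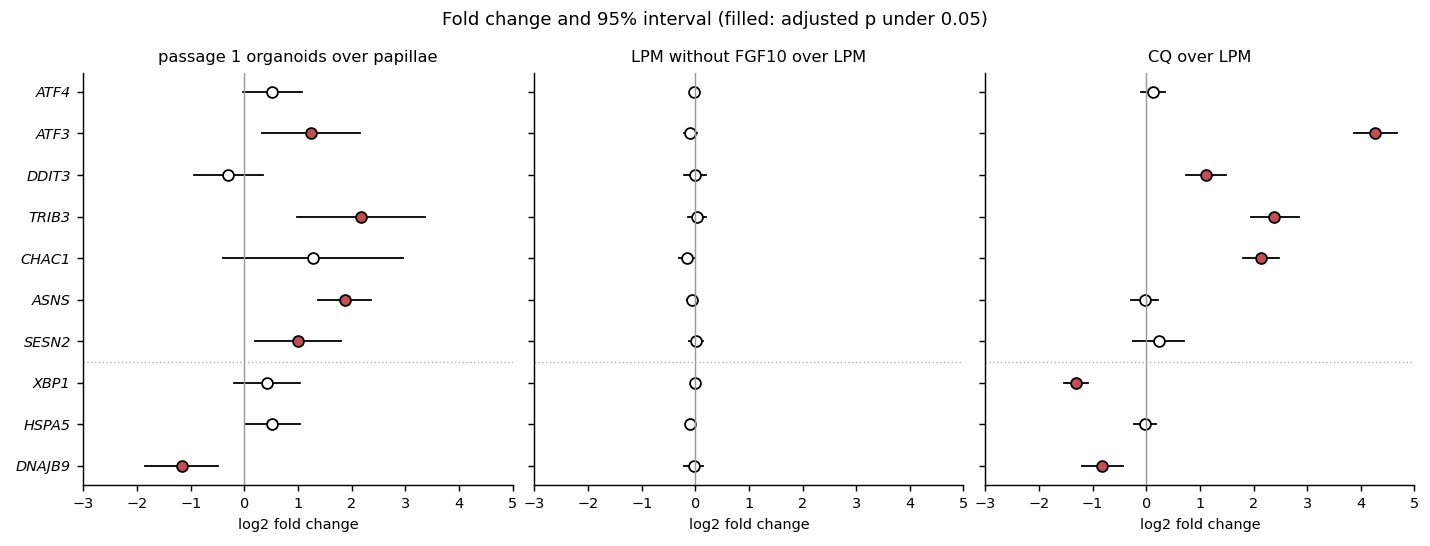
Circles are log2 fold changes with 95% intervals from edgeR, in 3 comparisons, filled where the adjusted p is under 0.05, with the ATF4 branch above the dotted line and the chaperone branch below it. In CQ, ATF3 stands at 4.27 and XBP1 at -1.31, while without FGF10 all 10 lie between -0.16 and 0.03.

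Upstream of ATF4, 5 of 8 eIF2α genes rose in CQ and 1 fell (median log2 0.42). Of all genes tested, 23.1% were called up and 24.8% down in CQ. PPP1R15A, which encodes GADD34, the stress-induced subunit that directs dephosphorylation of eIF2α, had 108 ± 6.33 CPM in CQ and 29.0 ± 3.6 CPM in LPM (log2 1.90, adjusted p = 7.04e-06). EIF2AK3, which encodes the ER kinase PERK, had 92.4 ± 8.76 CPM in CQ and 44.6 ± 4.96 CPM in LPM (log2 1.05, adjusted p = 0.000229). Of the 12 sensor genes, a list that also holds EIF2AK3, 4 rose and 5 fell (median -0.19). The site 1 protease gene MBTPS1, whose product cuts ATF6, had 70.8 ± 4.38 CPM in CQ and 133 ± 4.29 CPM in LPM. ERN2 had 0 counts in every CQ library.

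Downstream, the groups of ATF4 targets parted, beside 23.1% of all genes tested called up and 24.8% called down in CQ. Of 12 ATF4-targeted synthetases 7 rose and none fell (median 0.43), AARS averaging 230 ± 18.6 CPM in CQ and 125 ± 4.21 CPM in LPM. The 8 other synthetases, of which 4 rose and 1 fell, had a median of 0.39. Of 12 amino acid synthesis genes 6 fell and none rose (median -0.46), with the transsulfuration enzymes CBS and CTH at 2.93 ± 0.273 and 9.0 ± 1.33 CPM in CQ, against 19 ± 0.966 and 28.2 ± 1.63 CPM in LPM. Of 9 transporters 3 rose and 2 fell (median -0.19). SLC3A2, the heavy chain shared by several amino acid exchangers, rose to 291 ± 5.47 CPM in CQ, against 77.5 ± 8.71 CPM in LPM, while its partner SLC7A5 fell to 47.6 ± 5.95 CPM in CQ, against 79.3 ± 9.7 CPM in LPM.

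Of 16 other ATF4 and CHOP targets tested 2 rose and 9 fell (median -0.59). HMOX1, haem oxygenase, also a target of the oxidative stress factor NRF2, rose to 8.23 ± 1.83 CPM in CQ, against 2.11 ± 0.499 CPM in LPM. DDIT4 fell 32.9-fold, with 74.9 ± 4.12 CPM in CQ and 2460 ± 183 CPM in LPM, and the growth factor VEGFA fell 5.37-fold, with 86.8 ± 20.3 CPM in CQ and 466 ± 45.8 CPM in LPM. Both DDIT4 and VEGFA are also known hypoxia targets.

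Chaperone targets moved both ways, beside 23.1% of all genes tested called up and 24.8% called down in CQ. The shares of XBP1 targets were not far from these. Of 17 ATF6 chaperone targets 3 rose, with DNAJB11 and DNAJC3 of both lists among them, and 7 fell, with XBP1 among them (median -0.17). The ATF6 list summed to 3460 to 3710 CPM in CQ and 4220 to 4320 CPM in LPM, without overlap. HSP90B1, the ER form of HSP90, had 302 ± 33.9 CPM in CQ and 550 ± 16.2 CPM in LPM. The ER co-chaperone DNAJB11 had 61.9 ± 12.9 CPM in CQ and 37.4 ± 4.54 CPM in LPM. Of 23 XBP1 targets 7 rose and 6 fell (median 0.13), with EDEM1 at 153 ± 5.05 CPM in CQ and 309 ± 37.0 CPM in LPM, and HM13, a peptidase of the ER membrane, at 142 ± 5.34 CPM in CQ and 64.8 ± 4.53 CPM in LPM. Heat shock genes outside the ER, cytosolic but for the mitochondrial HSPD1 and HSPE1, rose in 12 of 13 cases and fell in none (median 0.98). HSPH1 had 290 ± 9.13 CPM in CQ and 50.3 ± 2.6 CPM in LPM, and HSPA8, the constitutive HSP70, had 3010 ± 62.1 CPM in CQ and 1050 ± 31.2 CPM in LPM.

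ATF3 is also an immediate early gene, and the 12 others listed split in direction. In CQ 6 rose and 5 fell (median log2 0.44): JUN had 302 ± 3.0 CPM in CQ and 73.5 ± 6.01 CPM in LPM, whereas EGR1 had 35.8 ± 2.4 CPM in CQ and 279 ± 27.7 CPM in LPM. Of 5 basal epithelium markers 4 fell, with sums of 4220 to 4500 CPM in CQ and 5700 to 6200 CPM in LPM, none of them at 0. Neither the part of these genes nor that of the lower number of genes seen in CQ was tested for the 10 genes.

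**Figure D4:**
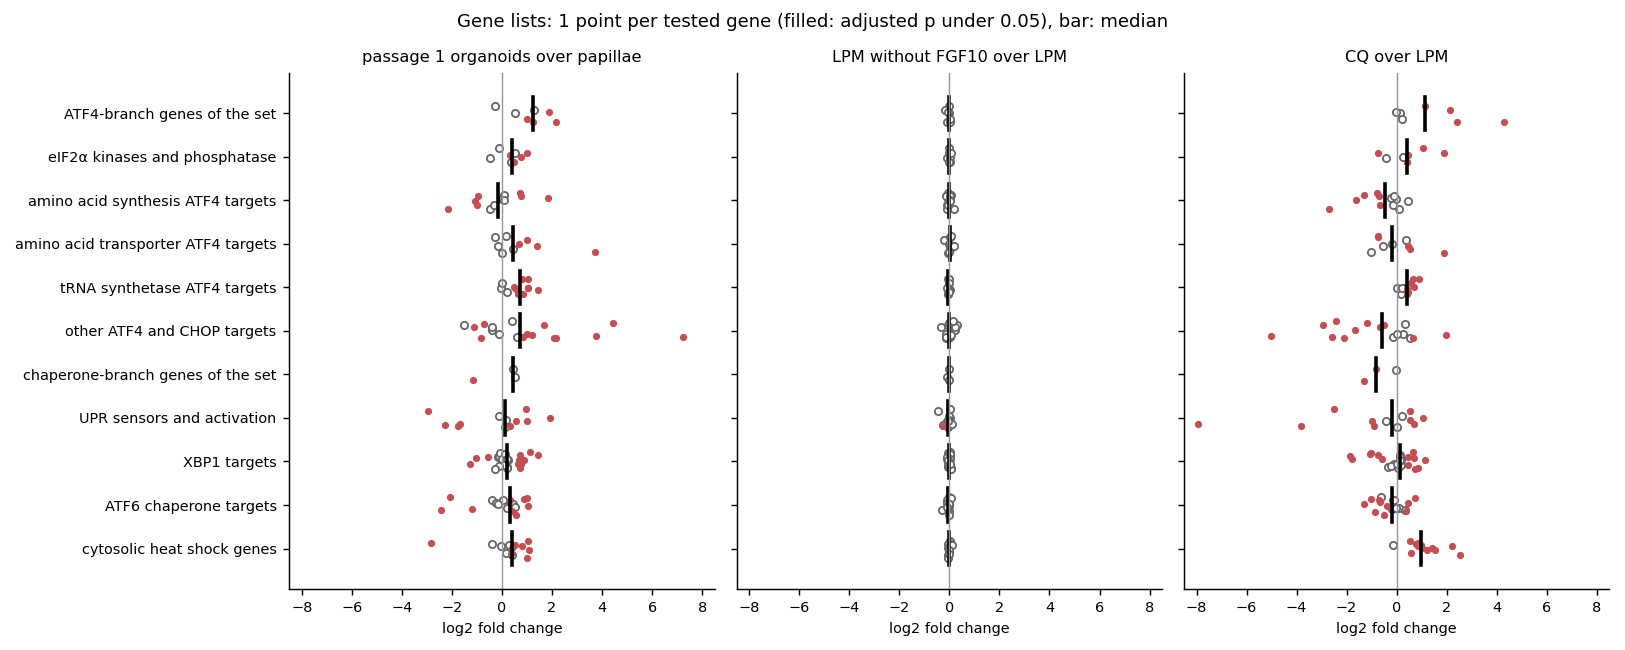
Each point is the log2 fold change of 1 tested gene in 1 list and comparison, filled where the adjusted p is under 0.05, and the bar is the median of the list. In CQ, the list labelled cytosolic heat shock genes, which also holds the mitochondrial HSPD1 and HSPE1, has a median of 0.98. Amino acid synthesis genes have one of -0.46, and without FGF10 all lists shown have medians between -0.04 and 0.02.

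Set side by side over the 6 groups, with the caveat that each experiment was scaled on its own, ATF3, DDIT3, TRIB3 and CHAC1 had their highest group mean in CQ. ATF3 averaged 225 CPM there and 48.0 CPM in passage 1 organoids, the next group, and these ranges did not overlap. For DDIT3, likewise, the next group, its LPM control, did not overlap, while TRIB3 and CHAC1 in CQ overlapped with passage 1 organoids. ASNS was lowest in papillae, at 31.3 CPM, apart from all 5 organoid groups, which ran from 109 to 132 CPM and overlapped with their neighbours. XBP1 was lowest in CQ, at 135 CPM, apart from papillae at 272 CPM, and DNAJB9 was highest in papillae, at 52.5 CPM, though overlapping with LPM of the CQ experiment at 41.8 CPM. LPM controls of the 2 media experiments did not overlap for 8 of the 10 genes, the exceptions being XBP1 and HSPA5, and the gap was widest in relative terms for 5 of these. In LPM beside FGF10-free medium ATF3 averaged 29.6 CPM, CHAC1 35.5 CPM, SESN2 40.3 CPM and TRIB3 22.1 CPM. In LPM beside CQ, ATF3 averaged 11.7 CPM, CHAC1 12.9 CPM, SESN2 16.2 CPM and TRIB3 10.2 CPM. DNAJB9 went the other way, at 18.4 CPM in LPM beside FGF10-free medium and 41.8 CPM in LPM beside CQ, and its mean in CQ, 23.6 CPM, lay between the means of both controls. These controls were scaled apart from each other and not compared by a test.

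Within groups, after each library was centred on its group mean, the 5 genes most like ASNS over 22 libraries among 10003 genes were AARS (Pearson r = 0.94), PYCR1 (0.93), SLC1A5 (0.92), TARS (0.91) and SURF4 (0.91). AARS and TARS are synthetases, PYCR1 makes proline and SLC1A5 carries glutamine, and all 4 stand on the ATF4 target lists. Between groups they could differ, as PYCR1 fell in passage 1 organoids against papillae, where ASNS rose. Without the 2 libraries farthest in ASNS, organoids of pigs 1 and 5, the values of r for the 5 genes were 0.73 to 0.87. Without all passage 1 organoids they were 0.68 (TARS) to 0.92 (PYCR1). For HSPA5 the 5 were LOC100624113 (0.94), ST13, an HSP70 co-chaperone (0.93), CLDN4 (0.93), TRIB1 (0.92) and TRAFD1 (0.92), or 0.85 to 0.90 without the 2 farthest libraries (papilla of pig 3 and organoids of pig 4), and none of them is on the XBP1 or ATF6 lists. Libraries share depth and composition across genes, so these values are descriptions.

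Among the 10 genes, CHAC1 and SESN2 varied most alike (r = 0.91 over 22 libraries, 0.80 over the 17 other than passage 1 organoids), and XBP1 and DNAJB9 gave 0.84 and 0.86. ASNS and XBP1 gave 0.44 over all 22 and 0.87 over the 17. Papillae weigh most in the values over 17 libraries. The coefficient of variation of XBP1 was 39.4% in papillae and 0.991 to 7.58% in the media groups. That of CHAC1 was 89.0% in papillae and 3.27 to 9.78% in the media groups. Several other pairs rested on the passage 1 organoids. The value for ATF4 and CHAC1 was 0.70 over all 22 and -0.31 without them, and that for TRIB3 and CHAC1 was 0.60 and -0.63.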

How the data were processed

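RNA sequencing counts of 22 pig libraries were analysed. The submitters' processing notes name STAR 2.7.10b, featureCounts, DESeq2, FastQC 0.11.9 and MultiQC 1.14. The deposited values are raw counts, made by the authors as read pairs per gene on Sscrofa11.1. Version 2.0.3 of featureCounts (16 libraries) or 2.0.6 (6 libraries), per the file headers, ignored strand, counted a pair for every gene it overlapped and left out multi-mapping pairs, so overlapping and near-identical genes are uncertain. An entry with no gene name, 0.326 to 0.477% of counts in the CQ experiment, was left out.

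Each comparison was fitted on its own groups with edgeR 4.0.16 in R 4.3.3 (TMM, filterByExpr, quasi-likelihood test, 2-sided, Benjamini-Hochberg). Fold changes come from that fit. Standard errors and 95% intervals were worked back from its fold change and F statistic and are approximate. The pipeline was tested on simulated data with the same dispersion for every gene. Of log2 changes of 1, edgeR recovered 34.3% for passage 1 organoids against papillae, 53.8% for CQ and 100% without FGF10. Of log2 changes of 2 it recovered at least 99.0%. A gene without a call in organoids against papillae or in CQ can therefore have changed. Alternatives were DESeq2 1.42.0, limma-voom (limma 3.58.1), scaling by library size alone, no filter, a replicate block and leaving out each library. Replicate pairs within a group differed beyond sampling noise (chi-square per degree of freedom 2.56 to 285), so none was merged. Pig numbers pair papillae and organoids of the same animals, as the labels say (correlation of same-pig deviations 0.036 to 0.11). The 10 genes and 22 gene lists, covering 223 genes of which 219 are in both annotations, were chosen with earlier results of these data known, and 18 of them are under older symbols. Beyond the 10 genes, the text names called genes ranked by p (at most 3 in each direction of a list), or a list's most abundant gene if it had no call, and the 5 nearest in pattern to ASNS and HSPA5 with a mean log2 CPM of at least 3. ERN2 in CQ and markers at 0 counts were named after their values were seen. Promoter sequences were not analysed here.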

Additional observations from a re-analysis of the deposited data

Results flagged for a closer look

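XBP1 in passage 1 organoids of pig 2 stood at 564.6 CPM, far above the other 4 organoid libraries at 297.4 to 328.3 CPM, with a gap to the nearest of 0.884 of the group's range. It was the 1 value set apart in this way among 20 sets of 5 libraries (10 genes in passage 1 organoids and in papillae), and chance sets apart about 1 in 20.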

How the results depend on the processing

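Over all alternatives, 326 of the fold changes of the 10 genes kept their direction and side of the threshold, 11 lost the call, 11 gained it and 22 changed sign, the last only for genes without a call. In passage 1 organoids against papillae, 4 genes rose, but 7 when scaled by library size alone (with ATF4, XBP1 and HSPA5 added), 1 with limma-voom (ASNS), and 2 to 6 with a library left out, 2 (ASNS and TRIB3) without organoids of pig 1 or 3. Without FGF10, 254 genes were called in all, but 429 with no filter and 125 to 294 with a library left out, 125 without LPM library 2 and 128 without the first FGF10-free library; 0 to 1 of the 10 fell. There, scaling by library size alone changed signs to 0.00 for ATF4, 0.01 for DDIT3 and 0.01 for XBP1 (log2), and leaving out a library gave -0.07 to 0.02 for ATF4, -0.10 to 0.09 for DDIT3, -0.06 to 0.09 for TRIB3, -0.05 to 0.10 for SESN2, -0.03 to 0.01 for XBP1 and -0.12 to 0.05 for DNAJB9. In CQ, library size alone gave 0.05 for ASNS and 0.05 for HSPA5, and leaving out a library -0.11 to 0.03 and -0.07 to 0.01. The cause of these changes was not tested. As a replicate block, pig number left 4 of the 10 genes higher in organoids with ATF3 lost and CHAC1 gained. The numbers of the media experiments pair nothing in the labels and same-numbered libraries did not deviate together (correlations -0.046 to 0.047 and -0.008 to 0.021): their replicate block gave 234 calls in place of 254 without FGF10, and 6120 in place of 6625 in CQ, with each of the 10 calls as before. Depth was lowest for TRIB3, at 66 counts in 1 library.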
